A study of Mus musculus with 11 samples.

Results

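CD8 T cells with no captured granzyme K RNA and at most a trace of granzyme B RNA were examined in single-cell transcriptomes of dissociated mouse lung. The cells were chosen by their counts of UMIs (unique molecular identifiers, each standing for 1 captured RNA molecule). A barcode first had to hold between 1000 and 30000 UMIs, of which no more than 14% came from mitochondrial genes. A member held at least 2 UMIs of Cd3d, Cd3e and Cd3g together, at least 1 of Cd8a and Cd8b1 together, 0 of Cd4, Gzmk and Cd79a, and at most 1 of Gzmb. These counts chose the cells, so the gate genes are given below only as a description. A count of 0 does not show that a gene is silent, so cells whose Gzmk RNA was missed can be members. The gate took 3525 cells of the 69266 barcodes that passed the filter, and 5952 cells passed it when the Gzmk and Gzmb conditions were dropped (CD8-gated cells below).

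CD8 T cells recognise peptides on MHC class I molecules through the CD8 coreceptor and the T cell receptor. Naive and central memory cells carry Ccr7, a chemokine receptor that guides them into lymph nodes, whereas cells that have met antigen or been driven by cytokines gain the chemokine Ccl5, NK cell receptors and cytotoxic granule proteins. Granzymes K and B are granule proteases of effector and tissue-adapted cells, so a gate without them leaves naive cells together with part of the memory pool.

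The libraries came from 4 genotypes. One WT library (wild type, +/+) was 18 months old by its age label. The 3 p21Het libraries came from p21 heterozygotes (+/-), where p21 is the cyclin-dependent kinase inhibitor encoded by Cdkn1a. The 5 p21mTert libraries carried an mTert allele at p21 (+/mTert), mTert being the mouse telomerase reverse transcriptase gene Tert. The 2 p21mTertCD libraries carried an mTertCD allele (+/mTertCD), which the labels do not spell out. All genotypes other than WT share a single unchanged p21 allele. The age labels give 18 months for every library except p21Het_1 at 19 months and p21mTert_1 at 20 months. The series title places mTert induction in p21-positive cells, so the allele is not specific to T cells. The labels do not say whether a library is a single animal, so p-values below measure the spread between libraries, which may be partly technical. WT_1, p21Het_1 and p21mTert_1 belong to an earlier deposit and the other 8 libraries to a later one.

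Libraries held 42038434 to 85988955 UMIs in all, of which the members contributed 1183659 to 4537010 per library. The members' median UMI count per cell was 5736 to 10932.5 and their median mitochondrial share 3.16% to 7.59%. Of the member barcodes, 79 of 3525 (2.24%) also occurred as a barcode of another library, and 0 were members in more than one. Library p21mTertCD_1 stood apart: it held the fewest member UMIs and the lowest median depth and mitochondrial share, and its median Spearman correlation with the other 9 replicated libraries was 0.911, against 0.949 to 0.965 for those.

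Cdkn1a, the targeted gene, was detected in the members of every library. Its level was 32.7 CPM (counts per 1e+06 UMIs of the summed members) in WT_1, 22.7, 31.9 and 19.0 CPM in p21Het, 23.2, 19.5, 26.3, 12.8 and 9.82 CPM in p21mTert, and 50.7 and 21.2 CPM in p21mTertCD, in order of replicate. The groups overlapped, and p21mTertCD_1 was the highest library and p21mTert_5 the lowest. Since each of these genotypes keeps a normal p21 allele, the level of Cdkn1a cannot check the labels. Tert gave only 1 to 5 UMIs per library over all members, at or near the floor of 3 counts, so no fold change was drawn from it. The deposited counts do not separate transcripts of an inserted mTert sequence from those of the native gene.

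The label was checked against markers. Cd8b1, the CD8 beta chain and itself a gate gene, reached 513 to 807 CPM across the 11 libraries. Ly6c2, a surface protein of memory CD8 T cells that naive cells carry at lower levels, reached 543 to 1088 CPM. Klrc2, the activating NK receptor NKG2C, reached 52.3 to 169 CPM, and Gzmm (granzyme M) 53 to 225 CPM. All 4 markers were therefore present in every library. Their sum was 1188 to 2222 CPM in members and 771 to 1869 CPM in Gzmk CD8 T cells. These ranges over libraries overlapped, so the range of the sum did not set members apart from Gzmk CD8 T cells. The sum does not show how each marker differed within a library. Of the T cell receptor constant genes, which the gate did not use, Trac averaged 316 CPM in members, against 462 CPM in Gzmk CD8 T cells and 82.3 CPM over all filtered barcodes, and Trbc2 averaged 887, 1325 and 222 CPM.

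Markers of other cell types were present in the summed members, some at high levels. The 6 CD4 and regulatory T cell markers summed to 68.7 to 187 CPM in members, against 1425 to 1863 CPM in CD4 T cells taken with the same CD3 condition, and Cd4 was at 0 by the gate. The 9 gamma delta T cell markers summed to 32.1 to 182 CPM. Transcripts of abundant lung cells were more prominent: 7 epithelial markers summed to 815 to 5436 CPM, led by Scgb1a1 and Sftpc, against 13479 to 41611 CPM over all filtered barcodes, and 8 macrophage markers to 318 to 2722 CPM. The 5 erythroid markers, mostly hemoglobin genes, had the widest range, 45.8 to 6207 CPM in members against 317 to 50364 CPM over all filtered barcodes, with 76.0 to 6207 CPM in p21Het, 289 to 5432 CPM in p21mTert and 5799 and 231 CPM in p21mTertCD. The 8 B cell markers summed to 249 to 748 CPM, against 6499 to 25523 CPM over all filtered barcodes. The 8 NK cell markers summed to 242 to 481 CPM, against 862 to 2880 CPM, and Ncr1, which encodes the NK cell receptor NKp46, was at most 3.29 CPM and at 0 in 6 libraries. The part of free RNA or of doublets in these values was not tested. Of the members, 155 held doublet scores that would mark them as likely pairs of cells, 2.83% to 6.78% per library.

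Cells at the edges of the gate differed from its core. The 325 members with 1 Gzmb UMI held Ccl5 at 10901 CPM, and the 178 cells just outside with 2 Gzmb UMIs held 12776 CPM, while the 3200 members with no Gzmb UMI held 5127 CPM. Members with 1 Gzmb UMI were unevenly spread: they made up 27.7% of members in p21mTertCD_1 and 29.6% in p21mTertCD_2, against 1.92% to 12.9% in the other libraries. Results on Ccl5 and Prf1 are therefore also given for a stricter gate, with Gzmb at 0 and at least 2 UMIs of Cd8a and Cd8b1 together. At the Gzmk edge, 609 cells lay just outside with 1 UMI. Their Ccr7 level was 41.0 CPM, against 547 CPM in members with no Gzmb UMI. These values are pooled over libraries, and 224 of the 609 cells came from p21mTertCD_1, whose members also held little Ccr7 (67.6 CPM).

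The first question was how large a share of the CD8 T cells the members formed. They made up 89.8% of CD8-gated cells in WT_1 (389 of 433; exact binomial 95% interval 86.6% to 92.5%, which covers counting error only). In p21Het they made up 88.2%, 81.1% and 82.8%. In p21mTert the shares were 83.8%, 52.0%, 62.5%, 77.6% and 43.6%. In p21mTertCD they were 17.3% and 49.5%, so that p21mTertCD_1 was the lowest of all libraries and p21mTertCD_2 lay within the range of p21mTert. The rest of the CD8-gated cells of p21mTertCD_1 were mostly Gzmk-positive (760 of 1024), while p21mTertCD_2 had 333 Gzmk-negative cells with at least 2 Gzmb UMIs.

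The share in p21mTert was 63.9% ± 16.9 (SD, n = 5), against 84.0% ± 3.68 (n = 3) in p21Het, a difference of -20.1 percentage points (exact permutation test, 2-sided, p = 0.0893; adjusted p = 0.24 over 12 share tests). Against p21mTertCD, at 33.4% ± 22.8 (n = 2), p21mTert was 30.5 points higher (exact permutation p = 0.143, adjusted p = 0.245). The p21mTertCD share was 50.6 points below p21Het (difference -50.6, exact permutation p = 0.1, the smallest this design can give, adjusted p = 0.24), and the libraries did not overlap. None of these differences passed the test. Leaving out p21mTertCD_1 changed the last difference to -34.5 points, and leaving out p21mTertCD_2 changed it to -66.8 points. The difference of p21mTert from p21mTertCD was 14.4 points without p21mTertCD_1 and 46.6 points without p21mTertCD_2.

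These shares depended on the depth per cell at which the gate was applied. After every cell was thinned to 1000 UMIs before gating, the members formed 96.4% of CD8-gated cells in WT_1, 90.5% to 92.5% in p21Het, 61.0% to 91.1% in p21mTert, and 69.7% and 91.9% in p21mTertCD. At this depth p21mTertCD_2 lay within the range of p21Het, and the difference between p21mTert and p21mTertCD was -0.554 points. Among cells with at least 5000 UMIs, a setting chosen after seeing the data, that difference was 40.6 points (exact permutation p = 0.0476). Of all filtered barcodes the members formed 7.12% in WT_1, 4.27% ± 0.226 in p21Het, 5.22% ± 1.90 in p21mTert and 5.15% ± 3.46 in p21mTertCD (mean ± SD). No difference in that share passed the exact permutation test (p = 0.482, 1 and 0.7). With cells thinned before gating it was 1.38% to 1.62% in p21Het, 1.96% to 3.20% in p21mTert and 4.89% and 5.61% in p21mTertCD, and no groups overlapped. The difference of p21mTert from p21mTertCD was then -2.84 points (exact permutation p = 0.0476, the smallest possible). The thinned gate took 368 cells in p21mTertCD_1, against 177 members there, so the cells taken by the 2 gates are not the same. Over all libraries, 1847 of 2254 CD8-gated cells were members at the thinned depth, against 3525 of 5952 before thinning. The thinned share of filtered barcodes is thus largely that of all CD8-gated cells. Before thinning these numbered 1024 and 858 in p21mTertCD, of 6558 and 5598 filtered barcodes. In p21Het they numbered 296 to 429, of 5865 to 8525.

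**Figure D1:**
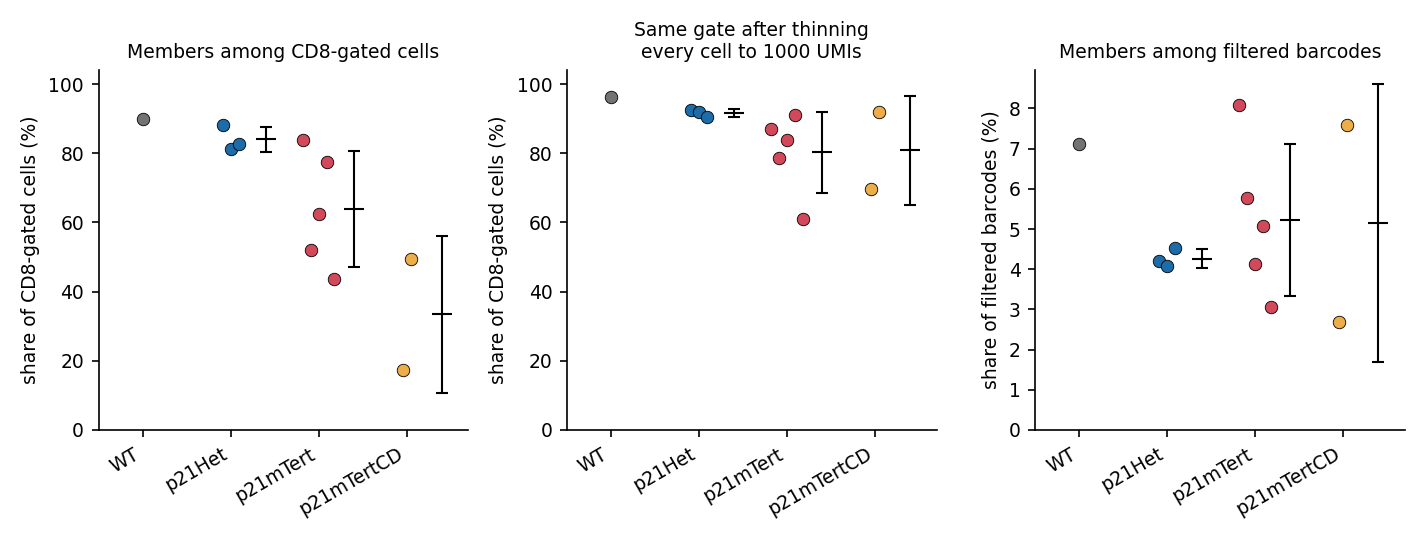
Each point is 1 library, with the mean and SD beside each group of 2 or more, and the y axes give percent. Left, members among CD8-gated cells, where the 2 p21mTertCD libraries sat at 17.3% and 49.5%; middle, the same after thinning every cell to 1000 UMIs, where they sat at 69.7% and 91.9%; right, members among filtered barcodes.

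Ccl5, a chemokine that memory CD8 T cells store as RNA and release on contact with antigen, split the members. Of the 3525 members, 1148 had no Ccl5 UMI, 123 had 1 and 40 had 2, while the median of those with any was 53 to 106 UMIs per library. Few cells therefore lay near the cut, although the split is a range of a single gene and not a cell type. Members with Ccl5 also had more UMIs per cell, with a median of 5903 to 12444 per library, against 4197 to 10362 in members without it.

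To compare libraries, members were thinned to 1000 UMIs each, which left out 0 of them. The share with a Ccl5 UMI was then 64.5% in WT_1. It was 50.2%, 50.9% and 49.1% in p21Het, and 54.9%, 75.9%, 57.3%, 51.6% and 56.2% in p21mTert. In p21mTertCD it was 80.2% and 79.1%. Both p21mTertCD libraries were above every other library, and all p21mTert libraries were above all p21Het libraries. With the stricter gate the first order was lost: the shares were 82.7% and 72.6% in p21mTertCD, and p21mTert_2 lay between them at 73.4%. The difference of p21mTert from p21mTertCD was then -18.9 points (exact permutation p = 0.0952). As background, 46 of 3444 alveolar type 2 cells (1.34%), which should lack Ccl5, had a UMI at the same thinned depth; their share was highest in p21mTertCD_1 at 6.67% and p21mTertCD_2 at 2.56%, against 0% to 2.07% elsewhere, and their median depth before thinning was 14021 to 22902 UMIs. The background was thus highest in the group with the highest member share, and its part in the difference was not tested. Before thinning, 55.5% to 87.0% of members had a Ccl5 UMI.

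The mean Ccl5 share was 50.0% ± 0.913 in p21Het, 59.2% ± 9.58 in p21mTert and 79.6% ± 0.825 in p21mTertCD. The difference of p21mTert from p21mTertCD was -20.5 points (exact permutation test, 2-sided, p = 0.0476, the smallest possible; adjusted p = 0.24). The p21mTertCD share exceeded that of p21Het by 29.6 points (exact permutation p = 0.1, the smallest possible, adjusted p = 0.24). The p21mTert share exceeded that of p21Het by 9.14 points (exact permutation p = 0.0893, adjusted p = 0.24), or by 4.96 points without p21mTert_2. After adjustment none passed. The difference between p21mTertCD and p21Het did not rest on a single library: it was 29.0 points without p21mTertCD_1 and 30.2 points without p21mTertCD_2.

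Ccr7, the lymph node homing receptor, set p21mTertCD_1 apart. At the thinned depth 3.95% of its members had a Ccr7 UMI. In the other 10 libraries this share was 25.9% to 45.1%, and p21mTertCD_2 lay inside that range at 37.6%. Alveolar type 2 cells showed 0.116%. Pdcd1, which encodes the inhibitory receptor PD-1, was detected in 6.21% of the thinned members of p21mTertCD_1 and in 0% to 1.44% elsewhere. The members of p21mTertCD_1 had a median of 5736 UMIs, against 7177 in its CD8-gated cells with a Gzmk UMI. In every other library the members were the deeper of these. Of those Gzmk cells in p21mTertCD_1, 29.5% held only 1 Gzmk UMI. The part of cells with missed Gzmk RNA in the Ccr7, Pdcd1 and other values of this library was not tested.

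**Figure D2:**
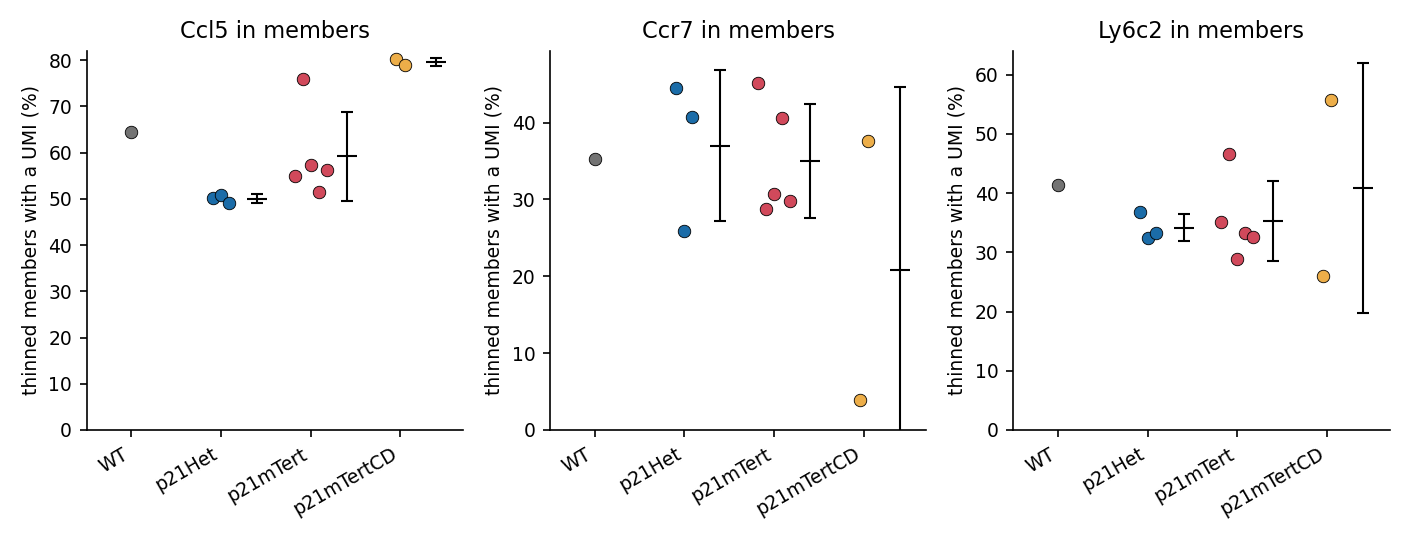
Share of members, each thinned to 1000 UMIs, that held a UMI of Ccl5, Ccr7 or Ly6c2 (y axes, percent), with 1 point per library and the mean and SD beside each group. Both p21mTertCD libraries were near 80% for Ccl5 (80.2% and 79.1%), while p21mTertCD_1 alone was low for Ccr7 (3.95%).

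Members with and without a Ccl5 UMI differed in several NK cell receptor genes. Since the cells were split on a gene of the same counts, this is a description with no test. Among 2498 genes with at least 50 CPM on the higher side, 204 were higher and 168 lower in Ccl5-positive members in all 11 libraries. Klrc2 averaged 139 CPM with Ccl5 and 5.61 CPM without, and its lowest library with Ccl5 (76.6 CPM) exceeded its highest without (52.6 CPM). Gzmm averaged 137 and 1.72 CPM, and Ly6c2 was 670 to 1243 CPM with Ccl5 and 30.1 to 156 CPM without, so that these 3 of the 4 given markers were found mostly on the Ccl5-positive side. Klrc1 (NKG2A, the inhibitory counterpart of Klrc2) averaged 129 and 6.81 CPM, and Klrk1 (NKG2D) 213 and 13.1 CPM. Klre1, Klra7 and Ctla2a were also among the genes with the largest ratios. The highest values without Ccl5 for Klrc1 (60.1 CPM), Klre1 and Klrc2 were those of p21mTertCD_1, which had 23 such cells.

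On the other side, Ccr9, a chemokine receptor of recent thymic emigrants and gut-homing T cells, averaged 4.35 CPM with Ccl5 and 94.1 CPM without. The interferon gamma receptor chain Ifngr2 averaged 9.52 and 96.4 CPM, and the transcription factor Sox4 3.22 and 51.6 CPM. Ramp1, Igf1r, Rgcc, Lztfl1 and Tmem176a were the other genes of largest ratio. Ccr7, in contrast, was present on both sides, at 68.5 to 578 CPM with Ccl5 and 60.1 to 948 CPM without, the lowest value of each range being that of p21mTertCD_1. In the other 10 libraries Ccr7 was lower with Ccl5 than without it.

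**Figure D3:**
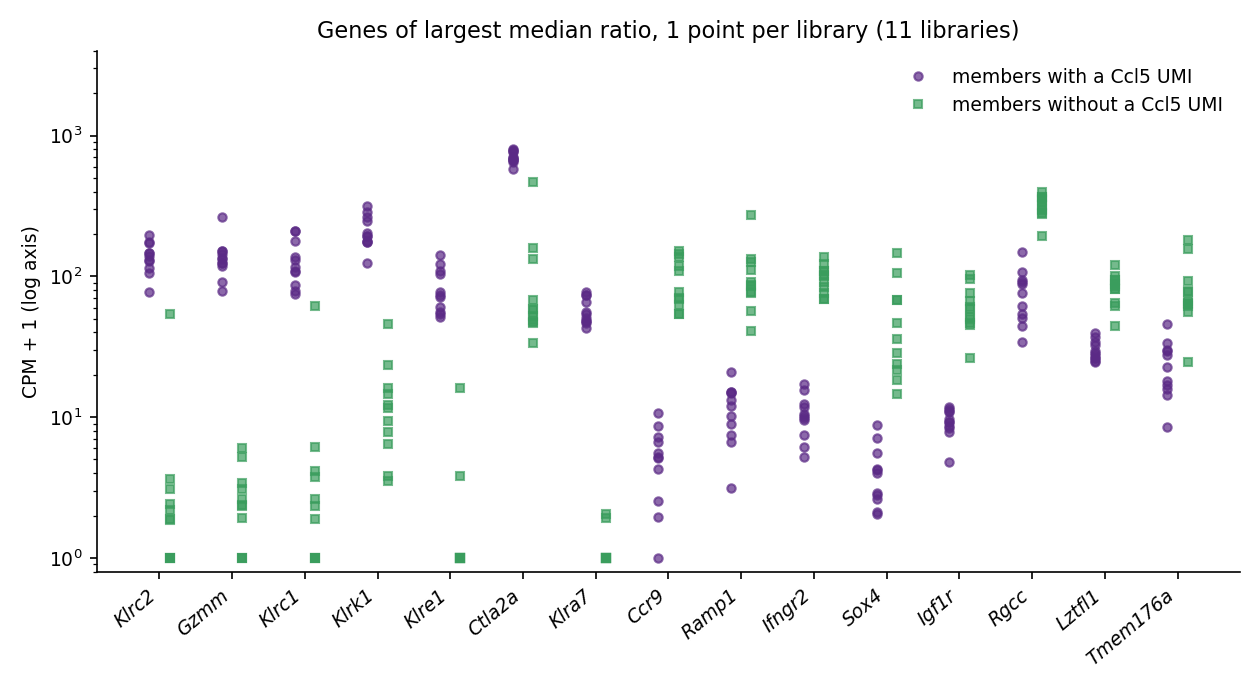
CPM + 1 on a log axis for 15 genes of largest median ratio between members with a Ccl5 UMI (circles) and without (squares), with 1 point of each kind per library (11 libraries). The first 7 genes were higher with Ccl5 and the last 8 without it in every library; a point at 1 is a level of 0 CPM.

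Beside the Gzmk CD8 T cells of the same libraries (1713 cells; CD8-gated with at least 1 Gzmk UMI), members held a larger sum of the 15 naive and lymph node homing genes in each of the 11 libraries, at 2581 to 5996 CPM against 1672 to 3320 CPM. The gate sets this contrast, so no test was made. Of 2722 genes with at least 50 CPM on the higher side, 185 were higher and 551 lower in members in all 11 libraries. Dapl1, a gene of naive and early memory CD8 T cells, averaged 114 CPM in members and 8.80 CPM in Gzmk cells. Ccr7 averaged 506 and 62.6 CPM, and Satb1, a chromatin organiser of naive T cells, 524 and 119 CPM. Sh3bp5, Rgs10, the interleukin 6 receptor gene Il6ra, Fam241a and Tdrp followed. Lower in members were the transcription factor Maf (33.9 and 272 CPM), Pdcd1 (8.94 and 65.7 CPM), Tox, a regulator of exhausted T cells (33.8 and 222 CPM), Nr4a2 (76.5 and 403 CPM), Bhlhe40, Itga4, Cx3cr1 and Ifng (17.7 and 92.3 CPM). Members of p21mTertCD_1 held Tox at 80.3 CPM, against 18.7 to 41.1 CPM elsewhere. Ccl5 itself was 4205 to 12204 CPM in members and 11094 to 20869 CPM in Gzmk cells.

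Beside CD4 T cells (3432 cells), genes higher in members included Ly6c2 (690 CPM in members and 36.7 CPM in CD4 cells), Gzmm (100.0 and 1.48 CPM), Klrd1 (189 and 32.7 CPM), Bend4 and Fcgrt. Lower in members were Tnfrsf4, Il17a, Maf and Cd40lg, which are genes of helper T cells. The genes set beside CD4 cells were chosen after their values were seen.

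Gene levels were then compared between genotypes, with UMIs summed over the members of each library and fitted by edgeR's quasi-likelihood test over 10325 genes in the 10 replicated libraries. With Benjamini-Hochberg adjustment 0 genes (0%) had an adjusted p under 0.05 in any of the 3 comparisons. At an unadjusted p under 0.05, p21mTert minus p21Het had 192 higher (1.86%) and 203 lower genes (1.97%). The comparison p21mTert minus p21mTertCD had 401 higher (3.88%) and 528 lower genes (5.11%), and p21mTertCD minus p21Het had 426 higher (4.13%) and 383 lower genes (3.71%). DESeq2 on the same sums called 7, 59 and 46 genes (0.0678%, 0.572% and 0.446%) in the order of the comparisons. Leaving out the cells with high doublet scores gave 0, 29 and 15 calls in edgeR (0%, 0.293% and 0.151%). Libraries of the compared groups did not overlap for 0.959% (higher) and 2% (lower) of genes in p21mTert minus p21Het, 4.1% and 9.65% in p21mTert minus p21mTertCD, and 11.5% and 8.84% in p21mTertCD minus p21Het. Without p21mTertCD_2 the comparisons with p21mTertCD had 439 and 297 calls, which set p21mTertCD_1 alone against the other groups on the assumption that it varies as they do. Without p21mTertCD_1 they had 1 and 5. The genes named below are the most abundant of each list, the given markers and those called in the comparison. Any other, among them Prf1, Tbx21, Klre1, Rtp4, Irf7, Gbp7, Irgm1, Usp18, Dapl1, Igfbp4, Actn1, Bax, Ide, Cldn5 and the genes of ciliated cells, was chosen after its values were seen.

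Prf1, which encodes the pore-forming protein perforin (chromosome 10, 61297833 to 61304680 in GRCm38), was 70.2 CPM in WT_1 and 52.8, 56.1 and 62.9 CPM in p21Het. It was 56.9, 75.7, 57.0, 65.5 and 67.4 CPM in p21mTert, and 141 and 127 CPM in p21mTertCD. Both p21mTertCD libraries were above all others. The log2 fold change of p21mTertCD from p21Het was 1.18 ± 0.15 (SE; edgeR adjusted p = 0.051), just short of the threshold, and that of p21mTert from p21mTertCD was -0.97 ± 0.14 (adjusted p = 0.0591). Over the 21 alternative settings, the first of these passed in 8, with adjusted p from 1.02e-05 to 1. It was 1.15 without p21mTertCD_1, 1.19 without p21mTertCD_2, and 0.94 among Ccl5-positive members alone. With the stricter gate the log2 fold change of Prf1, p21mTertCD minus p21Het, was 1.14 (edgeR adjusted p = 0.0503). Between p21mTert and p21Het Prf1 differed by 0.21 ± 0.13, within the spread of the libraries.

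Of the 15 cytotoxic effector genes tested, 9 were higher and 0 lower in p21mTertCD than in p21Het at an unadjusted p under 0.05, with 0 called after adjustment. Over all genes tested, 4.13% were higher and 3.71% lower at that threshold. The list's median log2 fold change was 1.05, beside -0.01 over all genes tested. Nkg7, a granule membrane protein, was 577, 465 and 480 CPM in p21Het and 1308 and 666 CPM in p21mTertCD, with p21mTertCD_1 far above the other library; its log2 fold change was 0.41 without p21mTertCD_1 and 1.27 without p21mTertCD_2. Gzmm was 84.7, 53 and 95.0 CPM in p21Het and 119 and 225 CPM in p21mTertCD (log2 fold change 1.17 ± 0.27, edgeR adjusted p = 0.203), or 0.53 without p21mTertCD_2. With the stricter gate, the share of thinned members with a Gzmm UMI was 1.92% in p21mTertCD_1 and 13.7% in p21mTertCD_2. In p21Het it was then 4.87%, 2.07% and 6.25%. Ctsw, a cathepsin of cytotoxic cells, and the chemokine Ccl4 differed by 0.32 and 0.87 (edgeR adjusted p = 0.599 and 0.745). The list's median was 0.41 without p21mTertCD_1 and 1.18 without p21mTertCD_2. Among Ccl5-positive members alone it was 0.75, and among Ccl5-negative members, where only 8 genes could be tested, it was -0.30. In p21mTert minus p21Het the median was 0.21, with 1 gene higher and 0 lower, beside 1.86% and 1.97% of all genes tested. The sum of the NK cell markers differed in the same direction: it was 245 to 341 CPM in p21Het, 242 to 301 CPM in p21mTert, 481 and 400 CPM in p21mTertCD and 424 CPM in WT_1. Of the 7 NK cell markers tested, 3 were higher and 0 lower in p21mTertCD than in p21Het at an unadjusted p under 0.05 (Klre1, Klra8 and Eomes), with a median of -0.03. Ncr1 was 0 and 0.220 CPM in p21mTertCD and 0 to 0.484 CPM in p21Het. The part of NK cells in the cytotoxic values was not tested. The list values here, and those of the memory and NK receptor genes below, are for the whole gate. Members with 1 Gzmb UMI were 27.7% and 29.6% of the p21mTertCD members, and their part in these list values was not tested.

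Ccl5 in the summed members was 6083 CPM in WT_1, 4527, 4600 and 4365 CPM in p21Het, 4557, 6312, 4592, 4205 and 4979 CPM in p21mTert, and 12204 and 8079 CPM in p21mTertCD. The p21mTertCD libraries were above all others (log2 fold change from p21Het 1.12 ± 0.18, edgeR adjusted p = 0.0962), and p21mTert overlapped p21Het. With the stricter gate the log2 fold change of Ccl5, p21mTertCD minus p21Het, was 1.17 (edgeR adjusted p = 0.116). Within Ccl5-positive members, the level was 6824 to 7114 CPM in p21Het and 13751 and 9368 CPM in p21mTertCD. Of the 15 memory genes 6 were higher and 0 lower at an unadjusted p under 0.05 in p21mTertCD than in p21Het, with a median of 0.54. Over all genes tested, 4.13% were higher and 3.71% lower. The 6 memory genes were Ccl5, Tbx21 (the transcription factor T-bet), Eomes, Cxcr3, Cd44 and Il18rap. Tbx21 was 32.9, 40.4 and 32.5 CPM in p21Het and 71.8 and 68.3 CPM in p21mTertCD (0.94 ± 0.18, edgeR adjusted p = 0.152). Ly6c2 and Il2rb, the most abundant of the list beside Ccl5, differed by 0.38 and 0.21, and Ly6c2 changed sign without p21mTertCD_2 (-0.20). Within Ccl5-positive members alone the list's median was 0.21.

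NK cell receptors on CD8 T cells were uneven. Klrk1 was 160, 88.0 and 131 CPM in p21Het, 138, 144, 119, 119 and 113 CPM in p21mTert, and 285 and 249 CPM in p21mTertCD (log2 fold change from p21Het 1.05 ± 0.19, edgeR adjusted p = 0.111). Klrc2 was 112, 52.3 and 91.2 CPM in p21Het and 159 and 169 CPM in p21mTertCD (0.94 ± 0.27, adjusted p = 0.316 in edgeR), and Klrc1 differed by 1.24 ± 0.31 (edgeR adjusted p = 0.266). Klre1 was 33.9, 36.7 and 44.2 CPM in p21Het and 127 and 105 CPM in p21mTertCD. Of the 17 receptor genes tested, 5 were higher and 0 lower in p21mTertCD than in p21Het at an unadjusted p under 0.05. Over all genes tested, 4.13% were higher and 3.71% lower. The list's median was 0.20. Klra1 and Klra3, which belong to the Ly49 family, were at most 7.60 CPM in both p21mTertCD libraries. The NK cell marker sum, given above, was likewise higher in both p21mTertCD libraries than in p21Het; 6 of its 8 genes are also in the receptor list, and its part in these values was not tested. Genes of the Klra and Klrc families are similar in sequence, so counts may be shared among them. Klra8 was 1.69 CPM in p21mTertCD_1 and 82.4 CPM in p21mTertCD_2, a spread within the group wider than that of the other libraries (0 to 16.8 CPM). In p21mTert minus p21Het, 4 receptor genes were higher (Klre1, Klri2, Klra3 and Klra1) and 0 lower, with a median of 0.28. Of all genes tested, 1.86% were higher and 1.97% lower in that comparison.

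**Figure D4:**
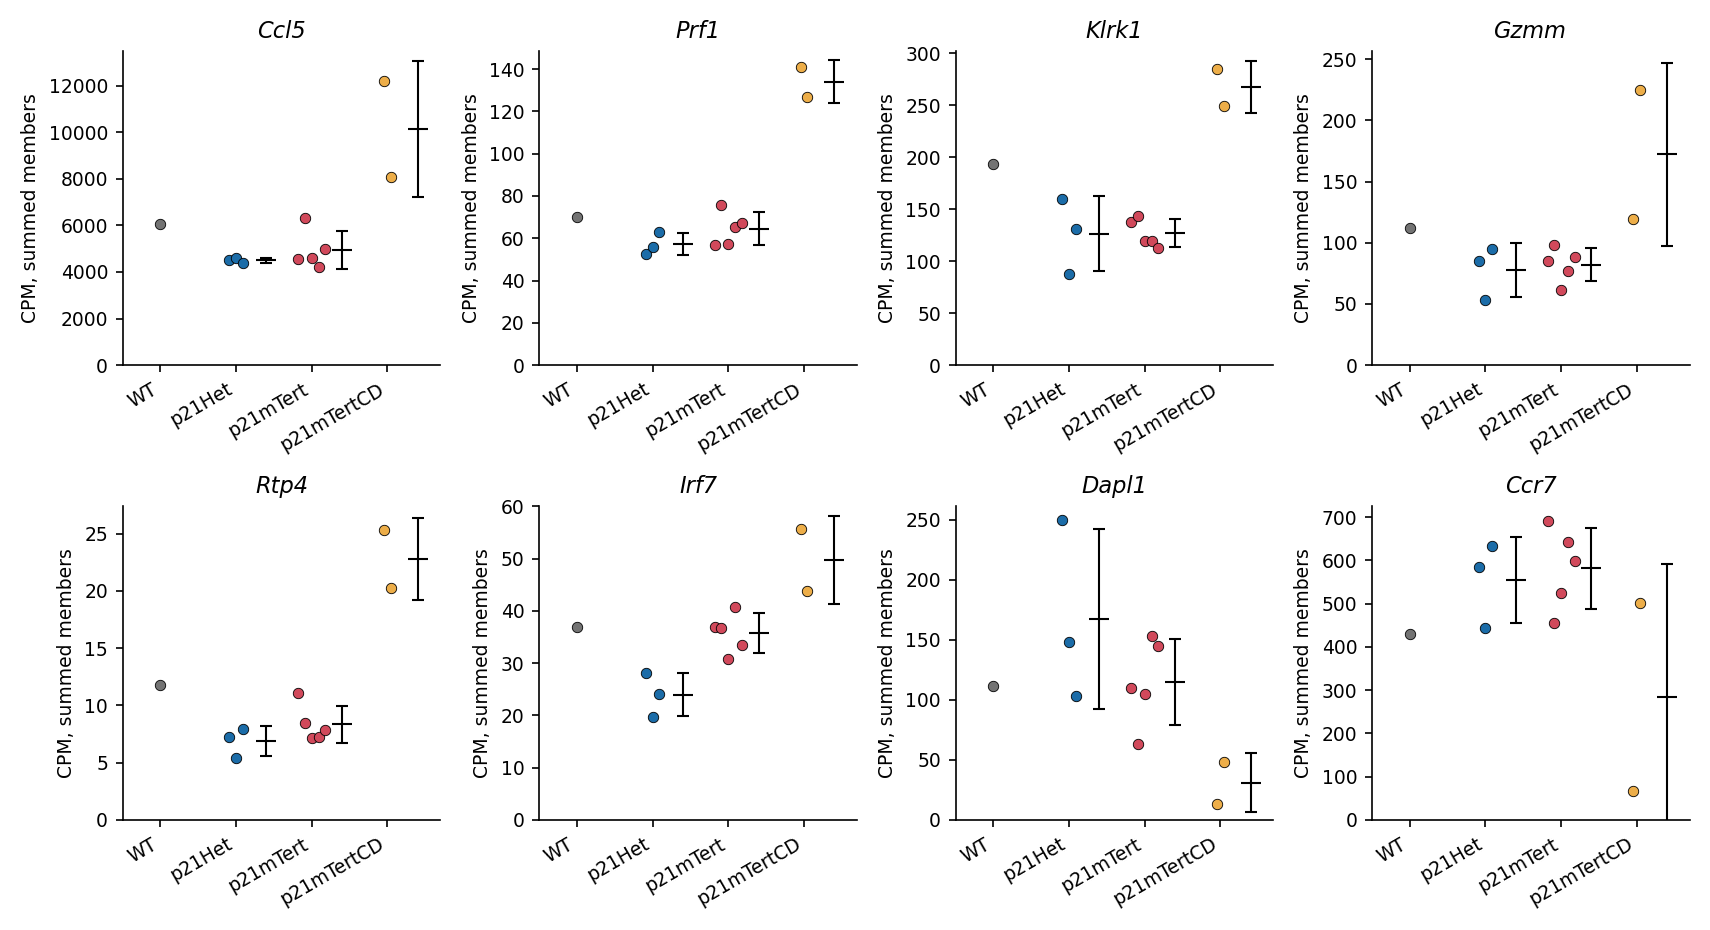
CPM of 8 genes in the summed members (y axes from 0), with 1 point per library and the mean and SD beside each group. For Prf1, Klrk1, Rtp4 and Irf7 both p21mTertCD libraries lay above all p21Het libraries, whereas for Ccr7 the 2 p21mTertCD libraries lay far apart at 67.6 and 501 CPM.

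Of 15 naive and lymph node homing genes, 7 were lower and 0 higher in p21mTertCD than in p21Het at an unadjusted p under 0.05. They were Dapl1, Lef1, Bach2, Ccr9, Tcf7, Igfbp4 and Actn1. The list's median was -0.57, with 0 called after adjustment. Over all genes tested, 3.71% were lower and 4.13% higher. The summed list was 2581 CPM in p21mTertCD_1 and 5411 CPM in p21mTertCD_2, the latter inside the p21Het range of 4771 to 5885 CPM. Without p21mTertCD_1 the median was -0.13, and without p21mTertCD_2 it was -1.36. Ccr7 was 586, 443 and 633 CPM in p21Het and 67.6 and 501 CPM in p21mTertCD, and its log2 fold change of -0.93 ± 0.53 (edgeR adjusted p = 0.687) became -0.13 without p21mTertCD_1 and -3.13 without p21mTertCD_2 (edgeR adjusted p = 0.000412). Those of Lef1 and Tcf7 were -0.17 and -0.18 without p21mTertCD_1, and -1.76 and -1.16 without p21mTertCD_2 (edgeR adjusted p = 0.00365 and 0.00915). Klf2, Il7r, Bcl2 and Satb1, the most abundant genes of the list, differed by -0.16, -0.19, -0.26 and -0.46.

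Dapl1 and Igfbp4 were low in both p21mTertCD libraries. Dapl1 was 250, 148 and 103 CPM in p21Het and 13.5 and 48.5 CPM in p21mTertCD (-2.25 ± 0.48, edgeR adjusted p = 0.159), and was -1.76 without p21mTertCD_1 and -3.71 without p21mTertCD_2 (edgeR adjusted p = 0.0144). Igfbp4 was 76.5, 45.2 and 58.4 CPM against 0.845 and 19.2 CPM (-2.14 ± 0.50, edgeR adjusted p = 0.203). Its log2 fold change was -1.61 without p21mTertCD_1 and -6.15 without p21mTertCD_2 (edgeR adjusted p = 0.00565), where it rests on a single UMI in p21mTertCD_1. Actn1, an actin crosslinker, was 134, 137 and 193 CPM against 39.7 and 80.2 CPM, a log2 fold change of -0.94 without p21mTertCD_1 and -2.06 without p21mTertCD_2 (edgeR adjusted p = 0.0112). In p21mTert these genes overlapped with p21Het, and the list's median there was 0.04. In that comparison 0 genes of the list passed an unadjusted p of 0.05 in either direction, beside 1.86% higher and 1.97% lower over all genes.

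Of 20 interferon response genes, 9 were higher and 0 lower in p21mTertCD than in p21Het at an unadjusted p under 0.05, with a median of 0.53 and 0 called after adjustment. Over all genes tested, 4.13% were higher and 3.71% lower. Interferon signalling reaches its target genes through a DNA element with paired GAAA letters upstream of them. Rtp4, an interferon-induced chaperone of receptors, was 7.26, 5.44 and 7.95 CPM in p21Het, 11.1, 8.44, 7.13, 7.24 and 7.86 CPM in p21mTert, and 25.3 and 20.3 CPM in p21mTertCD (log2 fold change from p21Het 1.66 ± 0.25, edgeR adjusted p = 0.0946). Irf7, the interferon-induced transcription factor, was 28.1, 19.7 and 24.2 CPM in p21Het and 55.8 and 43.9 CPM in p21mTertCD (1.00 ± 0.16, edgeR adjusted p = 0.0962). Irf7 in p21mTert was 37.0, 36.7, 30.8, 40.8 and 33.4 CPM, above all p21Het libraries and below both p21mTertCD libraries (0.63 ± 0.14 from p21Het, edgeR adjusted p = 0.869).

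The other named interferon genes depended on the library. Ifi27l2a was 161, 149 and 140 CPM in p21Het and 357 and 191 CPM in p21mTertCD, and Gbp7 (a guanylate-binding protein) 59.5, 47.2 and 49.4 CPM and 120 and 67.9 CPM, both highest in p21mTertCD_1. Without it their log2 fold changes were 0.36 and 0.40, against 0.80 and 0.76 with it. Usp18, a brake on interferon signalling, was 8.71, 15.6 and 15.6 CPM in p21Het and 11.8 and 46.1 CPM in p21mTertCD, highest in p21mTertCD_2. Ifi203 and Ifi47, among the most abundant of the list, differed by 0.20 and 0.05. The median was 0.40 without p21mTertCD_1 and 0.20 without p21mTertCD_2. It was 0.54 among Ccl5-positive members alone and 0.21, with 0 passing, among Ccl5-negative ones. In p21mTert minus p21Het it was 0.07.

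The 250 bases before the RefSeq start (GRCm38.p6) of the interferon list genes were searched, whether or not the genes differed between groups. Both strands were searched for GAAANNGAAA, overlapping matches included. Of the 16 interferon list genes with a promoter in the table, 13 held it (81.2%), against 936 of all 27025 genes with a promoter there (3.46%); a gene with several starts was counted if any held it, as for Ifi203. Of the 10 MHC class I list genes 2 held it, and the other 11 lists had 0 or 1. A match is a description of letters and does not show a bound site. The promoters of Ifi206, Ifi208 and Ifi213 are nearly identical in sequence, so these genes are not separate examples. Rtp4 had no promoter to search. Gbp7 (chr3:142530086-142530335, plus strand) and Irgm1 (chr11:48871421-48871670, minus strand) are shown as examples with a match and Irf7 (chr7:141266425-141266674, minus strand) as one without; the letters run 5′ to 3′ along the gene and capitals mark the motif, which lies on the opposite strand in Gbp7 and in 2 overlapping copies in Irgm1.
Gbp7: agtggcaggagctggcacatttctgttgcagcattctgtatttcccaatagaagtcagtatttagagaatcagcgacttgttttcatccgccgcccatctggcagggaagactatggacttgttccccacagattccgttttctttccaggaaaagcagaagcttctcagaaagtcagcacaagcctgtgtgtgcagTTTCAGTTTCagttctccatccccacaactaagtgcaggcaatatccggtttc
Irgm1: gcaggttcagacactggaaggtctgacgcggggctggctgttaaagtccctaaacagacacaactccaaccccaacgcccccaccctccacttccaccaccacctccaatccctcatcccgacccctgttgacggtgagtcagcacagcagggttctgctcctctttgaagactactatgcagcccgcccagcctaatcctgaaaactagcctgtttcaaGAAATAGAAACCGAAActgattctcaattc
Irf7: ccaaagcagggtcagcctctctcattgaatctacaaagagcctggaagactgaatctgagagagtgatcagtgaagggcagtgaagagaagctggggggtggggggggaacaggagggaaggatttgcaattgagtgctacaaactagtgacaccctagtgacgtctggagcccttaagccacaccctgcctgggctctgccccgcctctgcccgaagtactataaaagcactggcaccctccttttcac
Irgm1, an interferon-induced GTPase, was 21.8, 13.9 and 15.9 CPM in p21Het and 35.5 and 24.5 CPM in p21mTertCD (0.73, edgeR adjusted p = 0.457). The motif begins 53 bases before the start in Gbp7 and 30 and 24 bases before it in Irgm1.

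MHC class I and peptide loading genes differed by small amounts. Of 12, 7 were higher in p21mTertCD than in p21Het at an unadjusted p under 0.05 and 0 lower, with a median of 0.31. Over all genes tested, 4.13% were higher and 3.71% lower. B2m, the light chain of MHC class I, was 1766, 1603 and 1938 CPM in p21Het and 2593 and 2166 CPM in p21mTertCD (0.39 ± 0.11, edgeR adjusted p = 0.34). H2-K1, H2-D1 and H2-Q7 differed by 0.27, 0.30 and 0.17. The median was 0.20 without p21mTertCD_1 and 0.47 without p21mTertCD_2, and 0.00 among Ccl5-negative members.

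Checkpoint genes differed between the p21mTertCD libraries. Their median in p21mTertCD minus p21Het was 0.43 over 12 genes, -0.88 without p21mTertCD_1 and 1.29 without p21mTertCD_2. Pdcd1 was 51.5 CPM in p21mTertCD_1, 6.61 CPM in p21mTertCD_2 and 0.968 to 8.50 CPM in the other libraries. Nr4a2, Tox and Ctla4 were likewise higher in p21mTertCD_1 (177, 80.3 and 38.9 CPM) than in p21mTertCD_2 (37.2, 18.7 and 8.82 CPM). Ikzf2 was 51.3, 47.6 and 31.4 CPM in p21Het and 32.9 and 14.1 CPM in p21mTertCD.

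**Figure D5:**
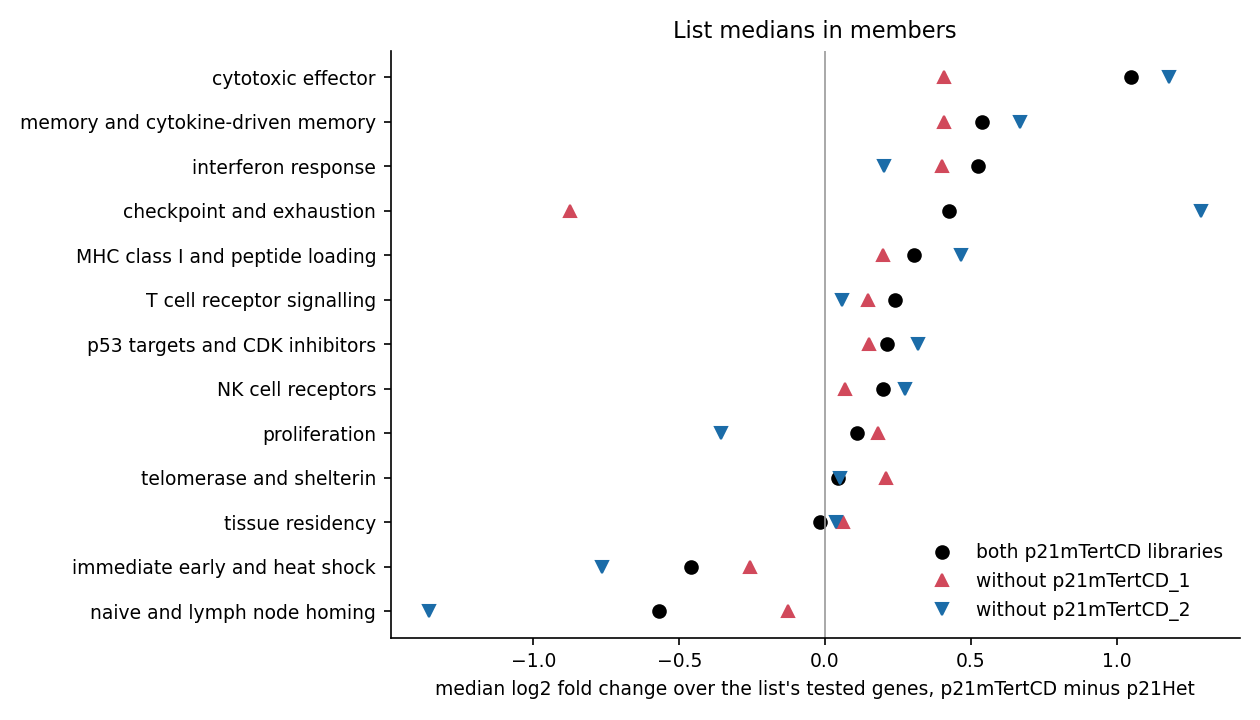
Median log2 fold change of p21mTertCD minus p21Het over the tested genes of each list (x axis), with both p21mTertCD libraries (circles) and with either left out (triangles). The cytotoxic, memory, interferon and MHC class I medians stayed above 0 in all 3 settings, and the checkpoint median ran from -0.88 to 1.29.

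Counts in the remaining lists are of genes past an unadjusted p of 0.05 in p21mTertCD minus p21Het. Over all genes tested, 4.13% were higher and 3.71% lower at that threshold. Tissue residency genes had a median of -0.02. Cxcr6 was 144 and 74.1 CPM against 33.0 to 68.8 CPM in p21Het, and Itgae, the integrin of epithelium-bound memory cells, 1.69 and 7.93 CPM against 15 to 20.3 CPM, while Cd69, Runx3 and Rgs2 differed by -0.23, -0.12 and -0.52. T cell receptor signalling genes had 3 higher and 0 lower of 14, with Ptprc, Fyb, Cd28 and Lck differing by 0.22, 0.02, 0.04 and 0.26. Junb and Jund, immediate early transcription factors, were the 2 lower of 14 genes in their list (-0.47 and -0.39), and Hspa8 and Hsp90aa1 differed by 0.01 and -0.13. Of 15 proliferation genes 0 passed, and Hmgb2, Tubb5, Stmn1 and Pcna differed by 0.29, 0.04, -0.32 and -0.26.

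Genes of p53 and the cell cycle brake, of interest because p21 is itself a p53 target, had 3 higher and 0 lower of 12 tested, with a median of 0.21. Over all genes tested, 4.13% were higher and 3.71% lower. Bax, a promoter of apoptosis, was 89.5, 97.9 and 85.3 CPM in p21Het and 152 and 135 CPM in p21mTertCD (0.61 ± 0.14, edgeR adjusted p = 0.201), with p21mTert between 85.1 and 110 CPM. Cdkn1b, Cdkn2d and Trp53inp1 differed by 0.10, -0.15 and -0.16, and Cdkn1a by 0.35 (edgeR adjusted p = 0.877), or -0.22 without p21mTertCD_1. Telomerase and shelterin genes had 0 of 8 past an unadjusted p of 0.05, with Dkc1, Terf1, Terf2ip and Terf2 at -0.17, 0.02, 0.03 and 0.17. Against p21Het, p21mTert differed in Cdkn1a by -0.36 ± 0.33 (edgeR adjusted p = 1), or -0.07 without p21Het_2.

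Transcripts of other cell types differed between libraries. The 7 epithelial markers summed to 815 to 3621 CPM in p21Het, 1749 to 5436 CPM in p21mTert and 1564 and 981 CPM in p21mTertCD, so p21mTert and p21mTertCD did not overlap. Over all filtered barcodes they were 27926 to 35974 CPM in p21mTert and 15909 and 17495 CPM in p21mTertCD. Of these 7, Ager and Scgb1a1 were higher and Foxj1 lower in p21mTert than in p21mTertCD at an unadjusted p under 0.05. Of all genes tested, 3.88% were higher and 5.11% lower in that comparison. The part of the epithelial markers in the members' values was not tested. The 6 endothelial markers summed to 51.8 to 101 CPM in p21Het, 92.4 to 276 CPM in p21mTert and 47.3 and 101 CPM in p21mTertCD, against 312 to 1135 CPM over all filtered barcodes. Over all filtered barcodes they also differed, at 387 to 728 CPM in p21Het and 590 to 1135 CPM in p21mTert, and their part in the members' values was not tested. In p21mTert minus p21Het 5 of the 6 were higher and 0 lower at an unadjusted p under 0.05 (Calcrl, Kdr, Cdh5, Gpihbp1 and Cldn5), with a median of 2.15. Of all genes tested, 1.86% were higher and 1.97% lower in that comparison. Once cells with high doublet scores were left out, 4 of the endothelial markers could be tested, with a median of 0.67 and 0 passing. Cldn5, an endothelial tight junction gene, was 8.71, 4.08 and 0 CPM in p21Het and 23.5, 21.5, 73.5, 17.8 and 7.20 CPM in p21mTert. Of the 29 genes called between p21mTert and p21mTertCD without the high doublet scores, several, such as Foxj1, Ccdc153, Dynlrb2, Sec14l3 and Tppp3, are genes of ciliated airway cells. Sec14l3 was 24.7, 15 and 2.42 CPM in p21Het, 2.70 to 9.21 CPM in p21mTert and 45.6 and 22.7 CPM in p21mTertCD. Prf1, Ccl5, Klrk1, Rtp4, Ifi27l2a and Ide were also among the 29, all lower in p21mTert. Klra1, of the NK cell receptor list, was among them in the other direction. It was higher in p21mTert (2.02, edgeR adjusted p = 0.0469 without the high doublet scores), as were Rab3ip and Auts2. Ide, an insulin-degrading protease, was 30.5, 30.9 and 25.6 CPM in p21Het, 26.7, 23.9, 24.5, 22.0 and 23.6 CPM in p21mTert and 59.1 and 46.3 CPM in p21mTertCD (p21mTert minus p21mTertCD -1.02 ± 0.14, edgeR adjusted p = 0.0591).

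Whether the genotype differences were particular to the members was tested against the Gzmk CD8 T cells of the same libraries, with library as a block and 9775 genes. In each of the 3 comparisons 0 genes (0%) had an edgeR adjusted p under 0.05, with 576, 651 and 568 at an unadjusted p under 0.05. DESeq2 called 0, 88 and 0. The log2 fold change of p21mTertCD from p21Het in members, minus that in Gzmk cells, was 0.83 ± 0.19 for Ccl5, 0.81 ± 0.24 for Prf1 and 1.23 ± 0.33 for Klrk1 (edgeR adjusted p = 0.85 for each), and none passed the test. The change from p21mTertCD to p21mTert differed by -1.05 for Ccl5 (edgeR adjusted p = 0.0737). Prf1 in Gzmk cells was 123 to 185 CPM in p21Het and 234 and 136 CPM in p21mTertCD.

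T cell receptor beta variable genes were used to look for a large share of a single one. Between 8.24% and 23.4% of members had a Trbv UMI per library, so these shares rest on 27 to 102 cells. Trbv12-2, chosen after its values were seen, had its highest share in p21mTertCD_2, where 13 of 35 such cells held it (37.1%, exact binomial 95% interval 21.5% to 55.1%). Elsewhere it was held by 3.33% (p21mTertCD_1) to 23.7% (WT_1) of such cells. Trbv12-1 and Trbv12-2 are similar in sequence, and their counts may be shared.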

How the data were processed

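Single-cell 3′ RNA libraries (10x Genomics) of digested lung were deposited by the authors as filtered matrices of UMI counts per gene (31053 genes) and barcode, 1 per library (11 libraries). Per the file headers the matrices were written by Cell Ranger software version 3.1.0, and mm10 is the genome build named in the submitters' processing notes. The deposited matrices hold barcodes outside the cell filter that the series' design text names (1000 to 30000 UMIs, at most 14% mitochondrial), so it was applied here, together with the gate. The members and the gene lists were chosen with earlier results of these data known.

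UMIs were summed over members per library (at least 20 cells) and tested with edgeR 4.0.16 (R 4.3.3; TMM factors, quasi-likelihood, Benjamini-Hochberg adjustment over all genes kept by its low-count filter), in 1 fit over 10 libraries. WT has 1 library and entered no test. The test of the difference from Gzmk CD8 T cells used both sums with library as a block. Tested on simulated counts, it recovered fewer changes than the group fit, so its lack of calls says little. Shares were compared with 2-sided exact permutation tests (scipy 1.17.1), adjusted over 12, of which 3 are not reported here. Thinning drew 1000 UMIs per cell without replacement. Doublet scores came from Scrublet in scanpy 1.11.5; its own threshold marked as few as 0.0305% of barcodes in a library, so the top scores were marked instead, 0.8% per 1000 barcodes, and left out only in an alternative. Alveolar type 2 cells held at least 100 Sftpc UMIs. Intervals (exact binomial, 95%) cover counting error only. Side-by-side ratios used a pseudocount of 5 CPM. Besides the given markers, Ccl5 and Ccr7, genes named without a test had at least 50 CPM on the higher side and the same sign in all 11 libraries, and were among the 8 of largest median ratio each way. Genes named from lists were any called and the 4 most abundant, besides those chosen after their values were seen, as said above. Positions are from GENCODE M21 (GRCm38). Alternatives included DESeq2 1.42.0, RLE factors, no low-count filter, a replicate block, a deposit term and each library left out.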

Additional observations from a re-analysis of the deposited data

Results flagged for a closer look

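In each of the cases below, 1 of the 5 p21mTert libraries lay far from the other 4 by Dixon's criterion; 6 of 43 values examined did so, where chance gives about 1 in 20. The share of thinned members with a Ccl5 UMI was 75.9% in p21mTert_2, against 51.6% to 57.3% in the other 4. The median mitochondrial share of members was 7.59% in p21mTert_1, which belongs to the earlier deposit, against 5.10% to 5.28%. Macrophage markers summed to 1017 CPM in the members of p21mTert_1, against 402 to 562 CPM. Monocyte and neutrophil markers summed to 3107 CPM in p21mTert_5, against 82.5 to 646 CPM. Endothelial markers summed to 276 CPM in p21mTert_3, against 92.4 to 128 CPM, and fibroblast markers to 111 CPM in the same library, against 2.63 to 13.3 CPM.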

How the results depend on the processing

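Depth limited the gate, and the p21mTertCD comparisons rest on 2 libraries. With cells thinned to 1000 UMIs before gating, the difference in member share of CD8-gated cells between p21mTert and p21mTertCD was -0.554 points, and that of filtered barcodes -2.84 points (exact permutation p = 0.0476). In the same setting the member share of filtered barcodes, p21mTertCD minus p21Het, was 3.76 points (exact permutation p = 0.1). Without thinning it was 0.879 points (exact permutation p = 0.7). The member share of filtered barcodes, p21mTert minus p21Het, was 0.915 points with thinning (exact permutation p = 0.0714). Most CD8-gated cells were members after thinning (1847 of 2254), so these thinned shares are largely those of all CD8-gated cells. With cells of at least 5000 UMIs the member share of CD8-gated cells, p21mTert minus p21mTertCD, was 40.6 points (exact permutation p = 0.0476). The share of filtered barcodes in p21mTertCD minus p21Het was then -0.187, or -0.371 with the stricter gate. The later deposit alone gave -0.638 for p21mTert minus p21mTertCD in filtered barcodes. The Ccl5 share in p21mTert minus p21mTertCD was -18.9 points with the stricter gate and -19.4 in the later deposit alone (exact permutation p = 0.0952 and 0.0667). The cause was not tested for these.

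Leaving out each library in turn, the share of filtered barcodes ranged from -2.37 to 2.52 points for p21mTert minus p21mTertCD and from -1.57 to 3.33 for p21mTertCD minus p21Het. The Ccl5 share for p21mTert minus p21mTertCD ranged from -24.6 to -18.6, with fewer samples and so a larger smallest p. Called genes ranged from 0 to 1 between p21mTert and p21Het, from 0 to 439 between p21mTert and p21mTertCD, and from 0 to 297 between p21mTertCD and p21Het, and the calls on the difference from Gzmk cells from 0 to 1, 0 to 21 and 0 to 4. A lone p21mTertCD library was assumed to vary like the other groups.

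Called genes in the same order were 28, 144 and 82 with no low-count filter, 7, 59 and 46 in DESeq2, 0, 29 and 15 without likely doublets, and 0, 0 and 1 with RLE factors, with a deposit term or on thinned counts. Ccl5-positive members alone, a setting added after seeing the data like those of at least 5000 UMIs and of Ccl5-negative members, gave 0, 1 and 0. For the difference from Gzmk cells they were 48, 127 and 65 with no filter, 0, 88 and 0 in DESeq2, and 2, 8 and 6 without likely doublets. Libraries with the same replicate number had correlations of deviations from their group means of -0.312 to 0.134. The p21mTertCD libraries deviate in mirror image by construction, so these values cannot show whether such libraries were paired. The replicate block, over the 8 libraries whose titles carry a number, gave 0, 0 and 0 calls. With it Ccr7 was -0.042, -0.10 and 0.057, and Cdkn1a 0.29 for p21mTert minus p21mTertCD and -0.39 for p21mTertCD minus p21Het.

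Other log2 values that changed sign were Cd44 on thinned counts (p21mTert minus p21Het 0.22) and, in Ccl5-positive members alone, Klrc2 and Ly6c2 (-0.021 and -0.053). In Ccl5-negative members alone they were Ly6c2 (0.61 for p21mTert minus p21mTertCD, -0.33 for p21mTertCD minus p21Het), Prf1 (0.016 for p21mTert minus p21mTertCD), and H2-K1, Nkg7 and Psmb8 (-0.10, -0.39 and -0.0023 for p21mTertCD minus p21Het). With each library left out, Gzmm, Klrc2 and Ly6c2 ranged from -0.055 to 0.31, -0.15 to 0.29 and -0.035 to 0.084 in p21mTert minus p21Het. Ly6c2 ranged from -0.73 to 0.24 in p21mTert minus p21mTertCD. In p21mTertCD minus p21Het, Ly6c2 and Cdkn1a ranged from -0.20 to 0.78 and -0.22 to 0.93.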
